A study of Mus musculus with 9 samples.

Results

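The genes described here are 37 genes of autophagy and of the lysosome, taken by symbol from a list of names and not by a threshold on any measured value. All 37 were found among the 46958 genes of the deposited count table, and all 37 passed the filter on low counts that left 14199 genes for testing. RNA was sequenced from CD138+ cells that had been pulled from mouse spleens with magnetic beads. CD138 is a surface proteoglycan that marks plasma cells, the antibody-secreting end stage of B cells. The mice were 3 months old, had not been immunized and had the mixed strain background C57/BL6x129/SVxBALB/c. The 9 libraries came from 9 spleens, 3 of kFRA mice, 3 of DH-LMP2A mice and 3 of wild-type (WT) mice. By its title the series asks whether a free light chain of the kind seen in light chain deposition disease, a disorder of antibody fragments laid down in tissues, is toxic to the plasma cells that make it. The genotype label of the kFRA mice reads kFRA (LCDD), the initials of that disease, and the other genotype labels name no disease. Beyond this the labels do not describe the alleles or the promoters that drive them. Nor do they say whether kFRA mice also carry the DH-LMP2A allele, so kFRA was compared with both other genotypes.

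Macroautophagy wraps portions of cytoplasm in a double membrane, the autophagosome, which then fuses with a lysosome whose hydrolases digest the contents. The ULK kinase complex starts the process, a lipid kinase complex around Beclin 1 marks the growing membrane with phosphatidylinositol 3-phosphate (PI3P), and ubiquitin-like conjugation attaches proteins of the LC3 and GABARAP family to it. Cargo receptors tie the load to those proteins. In plasma cells autophagy is known to restrain the size of the endoplasmic reticulum (ER) and to sustain long-lived cells, and many lysosomal genes are known targets of the transcription factors TFEB and TFE3, which bind the sequence CACGTG.

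The promoters of 4 members are shown because 2 of them, Lamp2 and Calcoco1, are the members called by the edgeR test with all 9 libraries, TMM scaling and genotype as its one term, and because Lamp1 and Atg5 carry the CACGTG motif closest to their starts. Each run is the 250 bases before the start of the gene in RefSeq (GRCm38.p6), read 5′ to 3′ on the strand of the gene, with CACGTG in capitals.
Lamp2: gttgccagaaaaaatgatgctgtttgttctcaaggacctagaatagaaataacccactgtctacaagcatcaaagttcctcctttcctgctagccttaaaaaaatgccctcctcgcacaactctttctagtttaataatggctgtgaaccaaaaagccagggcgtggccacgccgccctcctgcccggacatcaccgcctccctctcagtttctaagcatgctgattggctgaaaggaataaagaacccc
Calcoco1: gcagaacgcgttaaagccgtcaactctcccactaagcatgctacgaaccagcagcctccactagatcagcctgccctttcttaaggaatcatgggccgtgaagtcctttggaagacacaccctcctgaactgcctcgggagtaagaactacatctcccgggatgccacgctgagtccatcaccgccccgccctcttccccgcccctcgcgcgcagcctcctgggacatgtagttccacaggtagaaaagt
Lamp1: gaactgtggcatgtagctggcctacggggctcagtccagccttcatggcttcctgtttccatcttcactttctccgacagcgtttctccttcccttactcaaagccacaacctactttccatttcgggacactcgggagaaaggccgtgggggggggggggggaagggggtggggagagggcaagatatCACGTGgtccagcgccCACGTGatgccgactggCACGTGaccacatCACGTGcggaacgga
Atg5: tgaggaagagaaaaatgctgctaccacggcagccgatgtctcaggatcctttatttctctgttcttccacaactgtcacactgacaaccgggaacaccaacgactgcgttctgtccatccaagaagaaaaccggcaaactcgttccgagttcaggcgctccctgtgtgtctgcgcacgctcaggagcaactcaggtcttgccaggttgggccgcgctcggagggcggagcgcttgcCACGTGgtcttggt
The Lamp2 window is chrX:38456461-38456710 on the minus strand, that of Calcoco1 chr15:102722179-102722428 on the minus strand, that of Lamp1 chr8:13158911-13159160 on the plus strand and that of Atg5 chr10:44268089-44268338 on the plus strand. Lamp1 held 4 copies of the motif, starting 61, 45, 28 and 15 bases before the start, and the last 26 bases of its window lie in the exon of the deposited gene model. Atg5 held 1 copy, starting 14 bases before the start. Lamp2 and Calcoco1 held none.

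RefSeq windows were matched for 30 of the 37 members. CACGTG, which reads the same on both strands, was present in 7 of these 30 (23.3%), namely Atg3, Atg5, Atg7, Ctsd, Ctsl, Lamp1 and Mcoln1. Exons of the deposited gene models cover 211 of the 250 window bases in Ctsd, 62 in Mcoln1 and 44 in Atg3. The Atg7 window (chr6:114670846-114671095, plus strand) lies inside the deposited gene, which starts at 114643097. CACGTG was present in 6.86% of all 27025 genes with a window, whether or not they were tested here. Among the lysosomal hydrolases and cofactors that are described further below, 9 of 33 genes held it (27.3%). TGATGNAA, the core of the composite element read by ATF4 with C/EBP factors, was searched on both strands and was present in Ctsl alone among the members, against 3.91% of all genes. A match describes letters in the window and not binding. Over the 7 members with CACGTG the log2 fold change had a median of 0.10 in kFRA against DH-LMP2A, −0.14 in kFRA against WT and −0.23 in DH-LMP2A against WT. The 23 members without it had medians of 0.02, 0.04 and 0.01.

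Libraries held 15449026 to 21558128 counts. All 8 plasma cell markers were detected in every library, and their summed level was 18875 to 24122 CPM (the count scaled to a common library total) in WT, 34119 to 47121 in DH-LMP2A and 20385 to 32038 in kFRA. Single plasma cell markers did not all move the same way. In DH-LMP2A against WT 3 were called higher and 1 lower, beside 12.4% of all genes tested. In kFRA against WT 2 were called higher and 1 lower, beside 17.8%. The labels give a purity above 80%, and no macrophage marker was at 0 in any library. The 12 macrophage and monocyte markers summed to 5649 to 9606 CPM in WT, 1748 to 5291 in DH-LMP2A and 3241 to 5478 in kFRA. Erythroid markers also differed by genotype, at 50.9 to 337 CPM in WT, 2531 to 13553 in DH-LMP2A and 1168 to 2791 in kFRA. Granulocyte markers summed to 255 to 822 CPM in WT, 21.7 to 259 in DH-LMP2A and 8.75 to 27.7 in kFRA. Single granulocyte markers did not all follow this sum. In DH-LMP2A against WT, 5 of the 7 tested had a positive log2 fold change and 2 a negative one, with 1 called higher and 0 lower. In bulk samples, fewer cells of a type and less RNA per cell cannot be told apart. Some fits below add the mean log2 CPM of the macrophage or B cell markers as a covariate. The macrophage mean was higher in every WT library (8.32 to 9.05) than in any other library (6.56 to 8.28). The B cell mean was lower in every kFRA library (3.64 to 4.17) than in any other library (4.44 to 6.44). Fits with these covariates cannot separate marker content from genotype in those comparisons. Immunoglobulin genes held 43.6% to 55.4% of the counts in WT and 27.3% to 32.5% in DH-LMP2A. The kFRA replicate 2 library stood apart from the other kFRA libraries. Immunoglobulin genes held 29.2% of its counts, against 44.0% and 45.4% in kFRA replicates 1 and 3. Its plasma cell marker sum was 20385 CPM, against 30457 and 32038, and its macrophage marker sum was 5478 CPM, against 3332 and 3241. For the 37 members its median distance from the mean of the other kFRA libraries was 0.23 on the log2 scale, against 0.13 to 0.20 for the other 8 libraries. For 10 of the 37 members this distance was over 0.5, against 0 to 5 members for the other 8 libraries, and over all genes tested the share was 35.4%, against 9.2% to 26.5%. Calls and counts that differ without it are given below.

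Every member had reads in every library, with at least 48 counts. Per kilobase of exon, 30 of 37 members lay above the median of the genes tested. Ctsb and Ctsd, which encode the lysosomal proteases cathepsin B and cathepsin D, ranked highest at 478 and 366 CPM per kilobase, averaged over the 9 libraries. They were followed by the lysosomal membrane glycoprotein gene Lamp1 at 139, Gabarap at 100.1 and the cargo receptor gene Sqstm1 at 77.05 CPM per kilobase. Optn and Atg10 ranked lowest, at 2.13 and 2.03 CPM per kilobase. Without Ctsb and Ctsd, the other 35 members together made up 2244 to 2484 CPM in WT, 2337 to 2462 in DH-LMP2A and 2318 to 2522 in kFRA. The summed level of these 35 genes thus overlapped between all 3 genotypes.

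**Figure D1:**
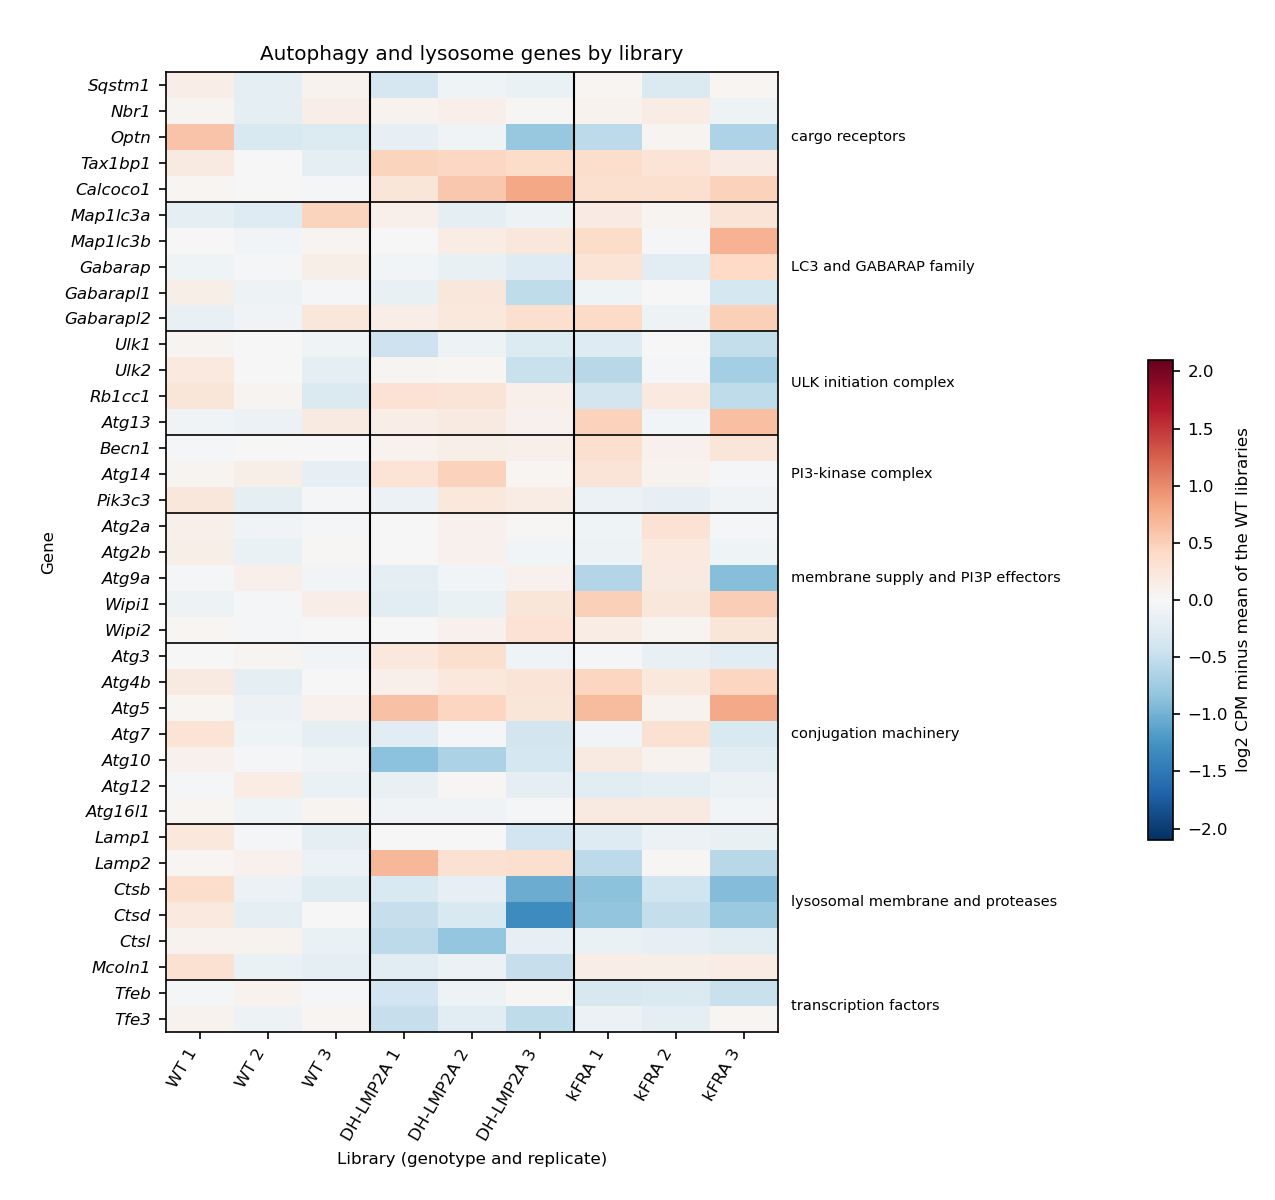
Level of each of the 37 genes (rows, grouped by role) in each of the 9 libraries (columns), as log2 CPM minus the mean of the 3 WT libraries, with red for higher and blue for lower. Most cells are pale, Ctsb and Ctsd are lowest in DH-LMP2A replicate 3, and kFRA replicate 2 is unlike the other kFRA libraries in Map1lc3b, Atg13, Atg9a and Rb1cc1.

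Few of the autophagy and lysosome genes passed the edgeR test between any of the genotypes. In kFRA against DH-LMP2A, 1 of 37 members passed an adjusted p of 0.05 in edgeR, and it was lower in kFRA (Lamp2), while 5.02% of all genes tested passed, 1.73% higher and 3.3% lower. In kFRA against WT, 0 of 37 members passed in edgeR, against 17.8% of all genes tested (6.68% higher and 11.1% lower). At an unadjusted p under 0.05 there were 7 members, against 35% of all genes, and the DESeq2 Wald test called 6 members, against 24.8% of all genes: Atg4b, Atg5, Wipi1 and Calcoco1 higher and Ctsb and Ctsd lower. In DH-LMP2A against WT, 1 of 37 members passed in edgeR, Calcoco1, and it was higher in DH-LMP2A, against 12.4% of all genes tested (5.07% higher and 7.3% lower). The DESeq2 Wald test called 3 members there, Tax1bp1 and Calcoco1 higher and Tfe3 lower, against 17.8% of all genes. At an unadjusted p under 0.05 there were 8 members in this comparison, against 26.6% of all genes, and 5 in kFRA against DH-LMP2A, against 22.4%. The comparisons share libraries and are not independent.

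Members' differences were small in size. The median log2 fold change over the 37 members was 0.02 in kFRA against DH-LMP2A, 0.01 in kFRA against WT and −0.06 in DH-LMP2A against WT, beside −0.01, −0.04 and −0.01 over all genes tested. The 95% interval lay within a 2-fold change in either direction for 35, 34 and 33 of the 37 members in these comparisons. Of the 9853 genes tested with a mean of at least 5 CPM, a level that 36 of the 37 members reach, the same held for 74.1%, 67.5% and 74.8%. Libraries of the genotypes compared did not overlap for 5, 8 and 10 members, beside 25.6%, 34.3% and 36.6% of all genes tested.

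**Figure D2:**
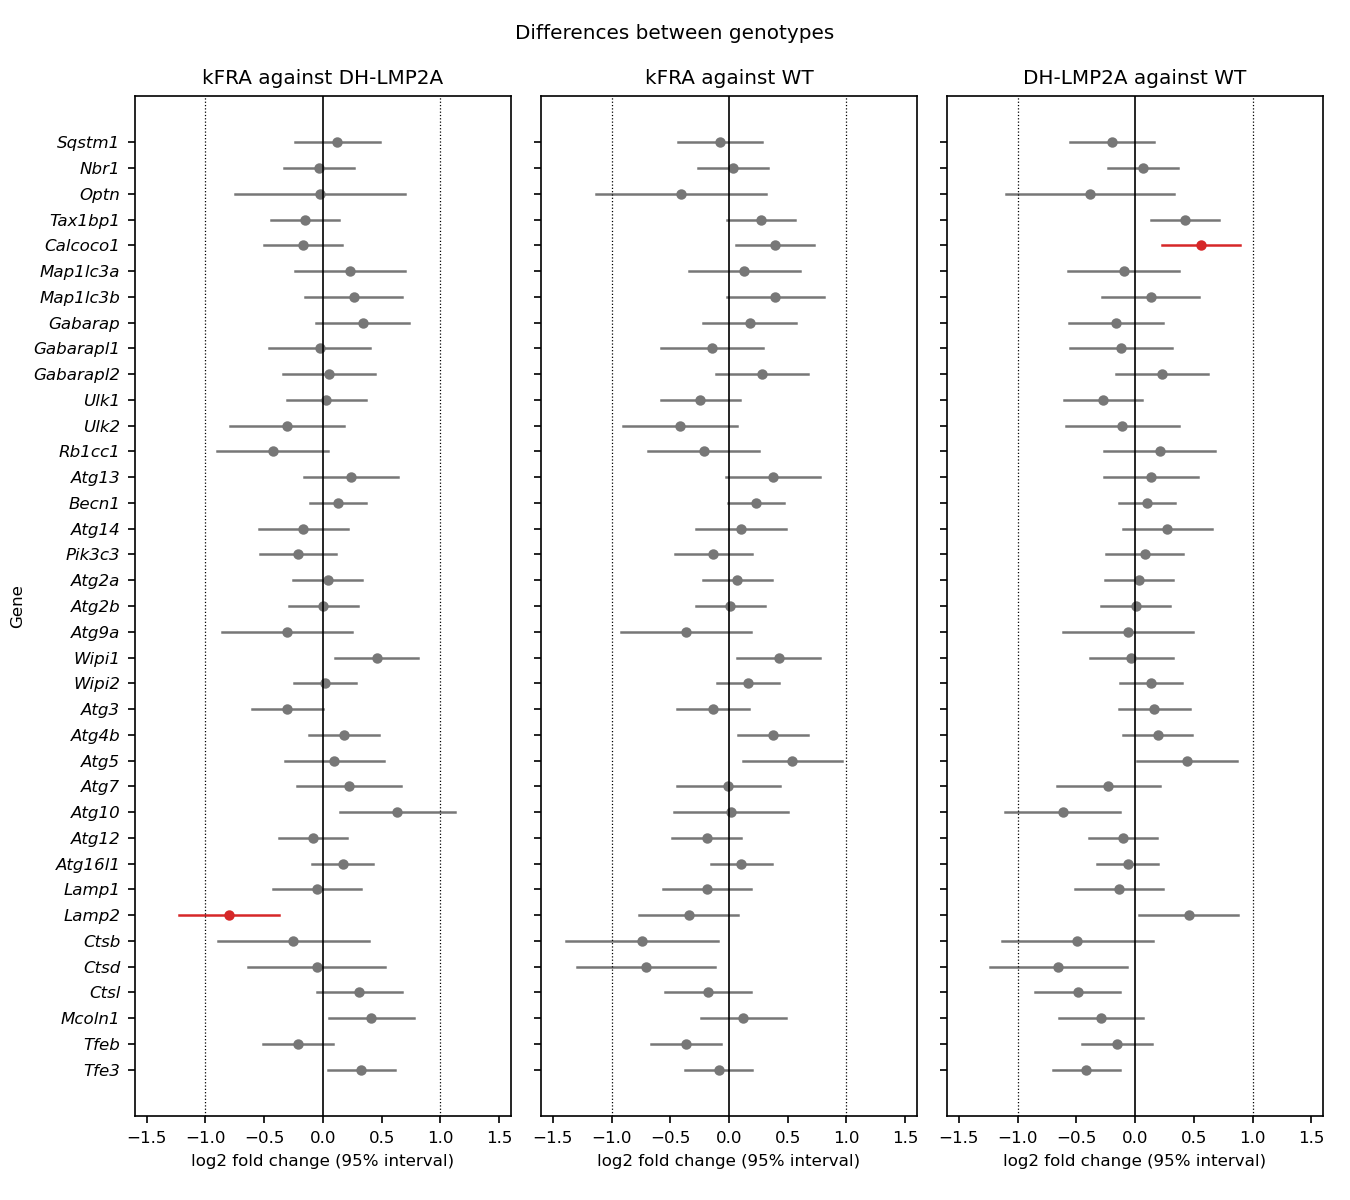
Log2 fold change of each of the 37 genes (rows) with its 95% interval in the 3 comparisons (panels), where dotted lines mark a 2-fold change and red marks an adjusted p under 0.05. Only Lamp2 in kFRA against DH-LMP2A and Calcoco1 in DH-LMP2A against WT are red.

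Among the cargo receptors, Calcoco1 rose in DH-LMP2A. It encodes a coiled-coil protein that is described as a receptor for ER-phagy, the digestion of ER by autophagy, and lies at chr15:102706779-102722178 on the minus strand. Its level was 62.9, 60.9 and 59.0 CPM in the WT libraries, 72.6, 89.8 and 107 CPM in DH-LMP2A and 77.3, 76.96 and 84.99 CPM in kFRA. All 3 DH-LMP2A and all 3 kFRA libraries lay above all 3 WT libraries. The log2 fold change of DH-LMP2A against WT was 0.56 (SE 0.15, n = 3 and 3, edgeR quasi-likelihood test with Benjamini-Hochberg adjustment, adjusted p = 0.0371). That of kFRA against WT was 0.39 (SE 0.15, adjusted p = 0.0964), which did not pass in edgeR, while the DESeq2 Wald test gave 0.43 (adjusted p = 0.0449). Of the 6 fits without 1 library, the call was made only in that without DH-LMP2A replicate 1 (log2 fold change 0.69, adjusted p = 0.0261), the others giving 0.42 to 0.58 (adjusted p 0.0832 to 0.12). It was also lost with the macrophage markers as a covariate (0.38, adjusted p = 0.284) and with the B cell markers as a covariate (0.75, adjusted p = 0.0664). Over all its alternatives the adjusted p ran from 0.00612 to 0.284.

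Of the other cargo receptors none passed in edgeR in any comparison. Tax1bp1, whose product binds ubiquitin and LC3, measured 116, 103 and 89.5 CPM in WT, 141, 138 and 134 CPM in DH-LMP2A and 132, 124 and 115 CPM in kFRA. Its 3 DH-LMP2A libraries lay above the WT libraries (log2 fold change 0.42, SE 0.13, adjusted p = 0.0639). The DESeq2 Wald test called this Tax1bp1 difference (0.43, adjusted p = 0.0105), as did edgeR with library size alone (adjusted p = 0.0368) or a replicate block (adjusted p = 0.0478). Sqstm1 encodes p62, the receptor for ubiquitinated cargo that is itself degraded by autophagy. It measured 302, 237 and 286 CPM in WT, 215, 257 and 248 CPM in DH-LMP2A and 283, 220 and 280 CPM in kFRA, and the 3 genotypes overlapped. Nbr1, a receptor related to p62, lay between 128 and 163 CPM in all 9 libraries. Optn, which encodes optineurin, lay between 5.21 and 13.8 CPM, with its highest value in WT replicate 1.

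The ubiquitin-like proteins of the LC3 and GABARAP family, which sit on the autophagosome membrane, did not pass in edgeR in any comparison with all libraries and TMM scaling. The 5 genes together measured 412, 412 and 462 CPM in WT, 423, 438 and 428 CPM in DH-LMP2A and 533, 393 and 605 CPM in kFRA. Replicates 1 and 3 of kFRA lay above the other 7 libraries, and kFRA replicate 2 lay below them all. Map1lc3b, the most used marker of autophagosomes, measured 157, 152 and 163 CPM in WT, 157, 175 and 186 CPM in DH-LMP2A and 207, 154 and 260 CPM in kFRA (kFRA against WT, log2 fold change 0.39, SE 0.18, adjusted p = 0.162). Gabarap was likewise highest in kFRA replicates 1 and 3, with 171, 179 and 199 CPM in WT, 175, 164 and 152 CPM in DH-LMP2A and 224, 154 and 243 CPM in kFRA (kFRA against WT, 0.18, SE 0.18, adjusted p = 0.491). Without kFRA replicate 2, both passed in kFRA against WT, Map1lc3b with 0.63 (SE 0.15, adjusted p = 0.012) and Gabarap with 0.42 (SE 0.14, adjusted p = 0.0434). Gabarapl2 then also passed (0.51, SE 0.14, adjusted p = 0.0246). With library size alone, Map1lc3b and Gabarapl2 passed against WT in both kFRA and DH-LMP2A. Gabarapl1 lay between 20.3 and 34.4 CPM and Map1lc3a between 9.94 and 16.7 CPM, with overlap between all genotypes.

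Among the genes that start autophagosome formation, no member passed in edgeR with all libraries and TMM scaling. Atg13, the subunit that links the ULK kinases to the scaffold, measured 76.1, 73.6 and 91.7 CPM in WT, 88.3, 91.7 and 85.6 CPM in DH-LMP2A and 112, 77.1 and 124 CPM in kFRA. Rb1cc1, which encodes the scaffold FIP200, measured 49.2, 42.9 and 33.5 CPM in WT, 51.0, 49.97 and 44.4 CPM in DH-LMP2A and 31.5, 47.9 and 28.7 CPM in kFRA. In both genes kFRA replicate 2 lay within the WT range and the other kFRA libraries lay outside it, higher for Atg13 and lower for Rb1cc1. With library size alone, Atg13 passed against WT in kFRA (0.56, adjusted p = 0.0181) and in DH-LMP2A (0.49, adjusted p = 0.0335). The kinase genes Ulk1 (33.2 to 48.7 CPM) and Ulk2 (26.4 to 49.5 CPM) had their lowest values in kFRA replicate 3. Becn1, which encodes Beclin 1, varied little in WT (72.4, 73.5 and 73.9 CPM) and in DH-LMP2A (77.5, 79.5 and 79.3 CPM). It varied more in kFRA (92.2, 78.4 and 87.5 CPM), where replicate 2 lay within the DH-LMP2A range. Its difference between kFRA and WT was 0.23 on the log2 scale (SE 0.11, adjusted p = 0.154). The exons of Becn1 overlap those of Cntd1 over 43.9% of their length, and its values are uncertain for that reason. Atg14, which directs the lipid kinase to autophagy, lay between 8.65 and 13.6 CPM, and Pik3c3, which encodes the kinase itself, between 25.5 and 34.3 CPM.

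The genes that supply and read the membrane included Wipi1, which encodes a PI3P-binding propeller protein. Wipi1 measured 49.0, 51.1 and 57.8 CPM in WT, 44.3, 47.7 and 62.5 CPM in DH-LMP2A and 74.6, 62.3 and 75.3 CPM in kFRA. All 3 kFRA libraries lay above the WT libraries, and kFRA replicate 2 overlapped DH-LMP2A replicate 3. The log2 fold change was 0.43 (SE 0.16, adjusted p = 0.0892) against WT and 0.46 (SE 0.16, adjusted p = 0.137) against DH-LMP2A, and neither passed in edgeR with all libraries and TMM scaling. Without kFRA replicate 2 both passed, with 0.57 against WT (adjusted p = 0.0229) and 0.61 against DH-LMP2A (adjusted p = 0.0288). The DESeq2 Wald test called Wipi1 against WT (0.46, adjusted p = 0.0486), as did library size alone (0.62, adjusted p = 0.0139), and the macrophage covariate called it against DH-LMP2A (0.52, adjusted p = 0.0279). Atg9a, which encodes the transmembrane lipid scramblase of the pathway, measured 22.3, 24.8 and 22.2 CPM in WT, 19.9, 22.1 and 24.6 CPM in DH-LMP2A and 15.1, 26.2 and 12.4 CPM in kFRA. Here the highest and the 2 lowest of the 9 values were all from kFRA, and 32.6% of the exon length of Atg9a overlaps other genes. The lipid transfer genes Atg2a (50.5 to 66.3 CPM) and Atg2b (46.9 to 60.04 CPM) and the second propeller gene Wipi2 (57.0 to 72.6 CPM) spanned narrow ranges.

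In the conjugation machinery, Atg5 gave the largest difference between kFRA and WT. Its product is joined to ATG12 and forms with ATG16L1 the complex that places LC3 on the membrane. Atg5 measured 30.1, 26.7 and 31.1 CPM in WT, 44.9, 39.8 and 34.7 CPM in DH-LMP2A and 46.1, 30.9 and 50.8 CPM in kFRA. All 3 DH-LMP2A libraries and kFRA replicates 1 and 3 lay above WT, and kFRA replicate 2 did not. The log2 fold change against WT was 0.54 in kFRA (SE 0.19, adjusted p = 0.0769) and 0.44 in DH-LMP2A (SE 0.19, adjusted p = 0.168). Atg4b, the protease that trims LC3, measured 33.2, 25.5 and 29.3 CPM in WT and 39.6, 34.1 and 40.1 CPM in kFRA (log2 fold change 0.37, SE 0.13, adjusted p = 0.081). In kFRA against WT the DESeq2 Wald test called both Atg5 (adjusted p = 0.0438) and Atg4b (adjusted p = 0.0436). Atg10, the E2-like enzyme for ATG12, was the least abundant member at 2.03 to 4.17 CPM, and its 3 DH-LMP2A libraries lay below all others (DH-LMP2A against WT, −0.62, SE 0.22, adjusted p = 0.104). Atg3, the E2-like enzyme for LC3, ranged from 31.3 to 46.9 CPM and the E1-like enzyme gene Atg7 from 15.0 to 24.5 CPM. Atg12 lay between 15.1 and 19.6 CPM and Atg16l1 between 24.3 and 29.6 CPM, with overlap between all genotypes.

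Of the lysosomal membrane genes, Lamp2 fell in kFRA against DH-LMP2A. Lamp2 encodes a heavily glycosylated membrane protein needed for fusion with autophagosomes and, as 1 of its isoforms, for chaperone-mediated autophagy, and lies at chrX:38401357-38456454 on the minus strand. Counts per gene do not separate its isoforms. It measured 109.6, 113 and 97.5 CPM in WT, 172.5, 133 and 134 CPM in DH-LMP2A and 73.1, 108 and 71.3 CPM in kFRA. All kFRA libraries lay below all DH-LMP2A libraries, and kFRA replicate 2 lay within the WT range. The log2 fold change against DH-LMP2A was −0.80 (SE 0.19, 95% interval −1.22 to −0.38, adjusted p = 0.0428). Against WT it was −0.34 in kFRA (adjusted p = 0.219) and 0.46 in DH-LMP2A (adjusted p = 0.153), and neither passed in edgeR with all libraries.

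Of the 6 libraries behind the Lamp2 call, dropping any 1 other than kFRA replicate 2 ended it (log2 fold change −0.62 to −0.83, adjusted p 0.0685 to 0.185). Without kFRA replicate 2 it was −0.96 (SE 0.15, adjusted p = 0.00617). With the macrophage markers as a covariate Lamp2 gave −0.85 (adjusted p = 0.025), and with the B cell markers −0.73 (adjusted p = 0.288). Over all its alternatives the adjusted p ran from 0.00275 to 0.288. The 8 B cell markers summed to 350 to 784 CPM in WT, 406 to 589 in DH-LMP2A and 238 to 286 in kFRA. Single B cell markers split in DH-LMP2A against WT, with 2 called higher and 2 lower, beside 12.4% of all genes tested. In the sum all kFRA libraries lay below all others, so the B cell covariate cannot be separated from genotype here. The part of B cell RNA in the Lamp2 difference was not tested beyond this covariate.

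**Figure D3:**
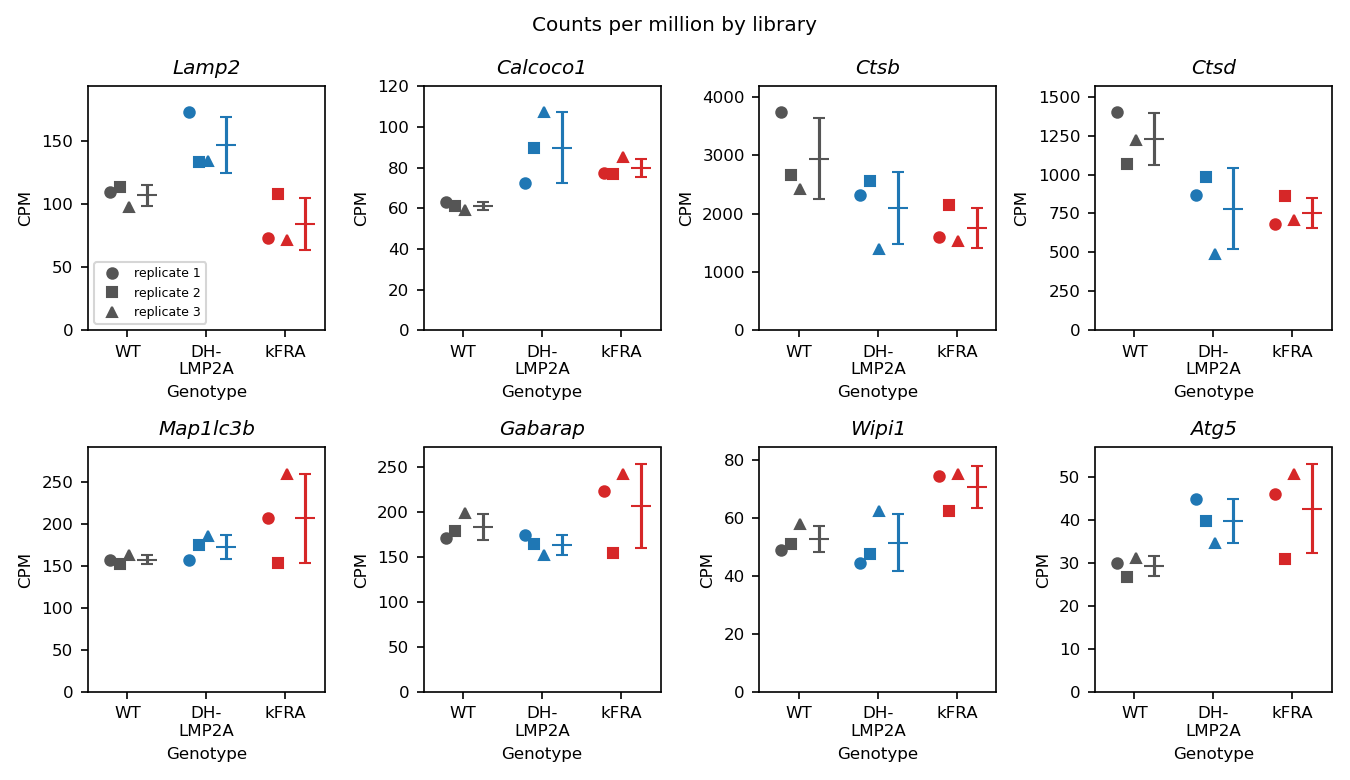
Level in CPM (vertical axes, from 0) of 8 genes in each library by genotype, with symbols for the replicate number and bars for the mean ± SD of 3 libraries. Lamp2 is lower in all kFRA than in all DH-LMP2A libraries, Calcoco1 is higher in all DH-LMP2A and kFRA than in all WT libraries, and kFRA replicate 2 (square) is the lowest kFRA value of Map1lc3b, Gabarap, Wipi1 and Atg5.

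The most abundant members, Ctsb and Ctsd, had their highest mean in WT and did not pass in edgeR. The DESeq2 Wald test called both lower in kFRA against WT (adjusted p = 0.0373 for Ctsb and 0.0386 for Ctsd). Ctsb measured 3742, 2667 and 2425 CPM in WT, 2328, 2560 and 1399 CPM in DH-LMP2A and 1592, 2154 and 1531 CPM in kFRA (kFRA against WT, log2 fold change −0.74, SE 0.29, adjusted p = 0.101). Ctsd measured 1401, 1066 and 1219 CPM in WT, 871, 983 and 491 CPM in DH-LMP2A and 684, 865 and 709 CPM in kFRA (kFRA against WT, −0.71, SE 0.26, adjusted p = 0.0886). All 3 kFRA libraries lay below all 3 WT libraries in both genes. Macrophages also express both genes strongly. The summed level of the 6 lysosomal membrane and protease genes ran from 2346 CPM in DH-LMP2A replicate 3, the library with the lowest macrophage marker sum (1748 CPM), to 5735 CPM in WT replicate 1, the library with the highest (9606 CPM). Ctsb and Ctsd made up most of this sum in both libraries. Lamp1 and Mcoln1 also had their lowest and highest values in these libraries, and Lamp2 and Ctsl did not. With the macrophage markers as a covariate, the kFRA against WT difference was −0.24 for Ctsb and −0.24 for Ctsd, and that of DH-LMP2A against WT moved from −0.49 to 0.09 for Ctsb and from −0.65 to −0.14 for Ctsd. Every WT library had a higher macrophage marker mean than every other library, so this covariate cannot be separated from genotype here. The part of macrophage RNA in these differences was not tested beyond this covariate.

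**Figure D4:**
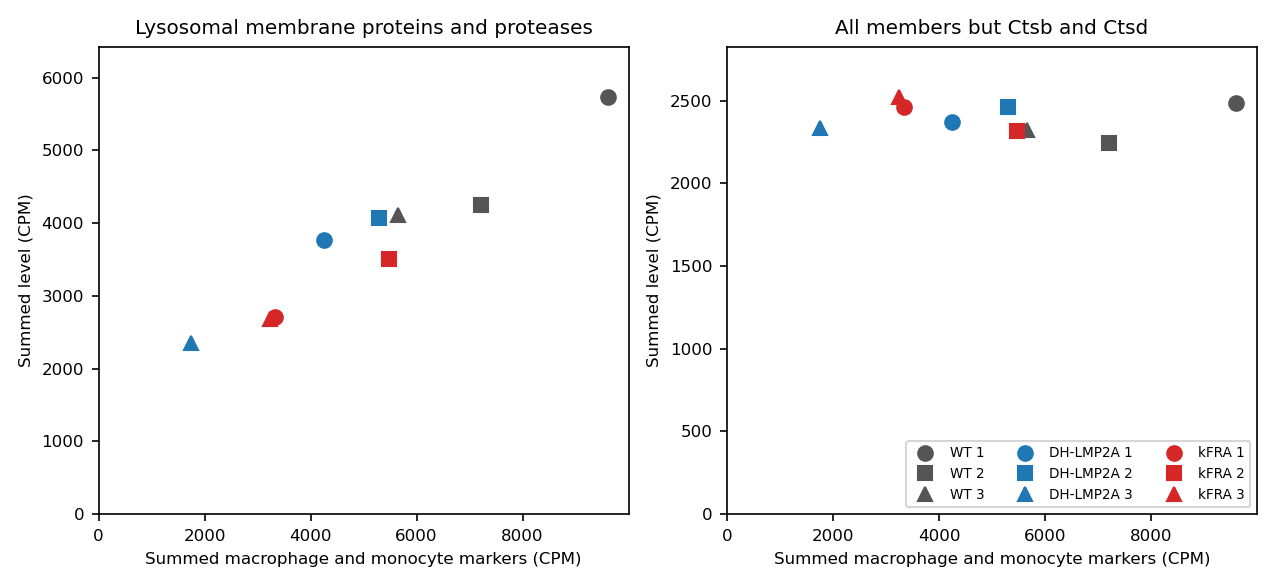
Summed level in CPM of the 6 lysosomal membrane and protease genes (left) and of the 35 members other than Ctsb and Ctsd (right) against the summed level of 12 macrophage and monocyte markers in the same library, 1 point per library. On the left, where Ctsb and Ctsd make up most of the sum, the lowest and highest points on one axis are also the lowest and highest on the other. On the right all 9 libraries lie between 2244 and 2522 CPM.

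The other lysosomal members were lower in level. Lamp1 ranged from 255 to 393 CPM with overlap between all genotypes. Ctsl, which encodes cathepsin L, measured 59.0, 59.3 and 50.8 CPM in WT, 38.6, 32.1 and 49.9 CPM in DH-LMP2A and 50.9, 49.96 and 48.5 CPM in kFRA, and all DH-LMP2A libraries lay below WT (log2 fold change −0.49, SE 0.16, adjusted p = 0.0848). Mcoln1, the lysosomal calcium channel gene, measured 27.0, 26.7 and 27.4 CPM in kFRA and 20.9, 22.5 and 17.6 CPM in DH-LMP2A (0.41, SE 0.16, adjusted p = 0.177). The 2 transcription factor genes did not pass in edgeR with all libraries either. Tfeb measured 28.4, 30.7 and 28.5 CPM in WT and 23.2, 23.8 and 21.1 CPM in kFRA, with no overlap (−0.36, SE 0.13, adjusted p = 0.0866). Tfe3 measured 45.4, 40.1 and 44.2 CPM in WT and 30.9, 36.5 and 30.0 CPM in DH-LMP2A, with no overlap (−0.41, SE 0.13, adjusted p = 0.0638), and the DESeq2 Wald test called this difference (adjusted p = 0.0361). RNA levels do not report the nuclear entry by which both factors are regulated.

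Leaving out kFRA replicate 2 changed the counts more than any other single library. In kFRA against DH-LMP2A, 8 members then passed, against 22.7% of the genes tested in that fit (11.7% higher and 11% lower). Atg13, Tfe3, Map1lc3b, Gabarap and Wipi1 were higher in kFRA, and Rb1cc1, Atg9a and Lamp2 were lower. In kFRA against WT, 12 members passed, against 38.8% of the genes tested (18.8% higher and 20% lower). Atg4b, Atg13, Atg5, Gabarapl2, Map1lc3b, Gabarap, Becn1, Wipi1 and Calcoco1 were higher in kFRA, and Atg9a, Lamp2 and Ulk2 were lower. The largest of these differences against WT were 0.79 for Atg5 (SE 0.15, adjusted p = 0.0056) and −0.69 for Atg9a (SE 0.14, adjusted p = 0.0085). The share of all genes that passed was thus also larger than with all libraries.

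A further 150 genes of the pathway were followed, of which 149 were matched, and the lysosomal hydrolases and their cofactors were the list with the most calls. It is also the longest list, and the lists were chosen with earlier results of these data known. Its counts are therefore a description and not independent support for a change of the group. All 38 of its genes were tested. In DH-LMP2A against WT, 11 rose and 3 fell, which is 36.8% of the 38 beside 12.4% of all genes tested, with a median log2 fold change of 0.08 over the 38 and −0.01 over all genes. With library size alone 13 rose and 0 fell, with a median of 0.42 beside 0.33 over all genes, of which 18.1% were called. With a replicate block 11 rose and 7 fell, beside 14.6% of all genes called. Ctsz, which encodes the carboxypeptidase cathepsin Z, measured 343, 283 and 325 CPM in WT, 840.1, 680.0 and 761 CPM in DH-LMP2A and 345, 383 and 441 CPM in kFRA. Its log2 fold change in DH-LMP2A against WT was 1.26 (SE 0.16, adjusted p = 0.00134), and in kFRA against DH-LMP2A it was −0.97 (SE 0.16, adjusted p = 0.00908). The 3 DH-LMP2A libraries lay above the other 6. Glb1, the acid beta-galactosidase gene, measured 81.5, 79.4 and 110.2 CPM in WT, 190, 158 and 178 CPM in DH-LMP2A and 45.7, 57.9 and 54.0 CPM in kFRA. It was highest in DH-LMP2A (0.96 against WT, SE 0.16, adjusted p = 0.00562) and lowest in kFRA (−0.78 against WT, SE 0.16, adjusted p = 0.012), and no genotype overlapped another. Fuca1, the alpha-fucosidase gene, rose by 0.86 in DH-LMP2A against WT (SE 0.12, adjusted p = 0.00207).

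Other hydrolase genes that rose in DH-LMP2A against WT included Smpd1, Gm2a, Arsa, Naglu, Gaa, Arsb and Npc2, with log2 fold changes from 0.61 to 1.10. Several of them are known for lysosomal storage disorders, among them Gaa (Pompe disease). Ppt2 and Ctsh were among those that fell. In kFRA against DH-LMP2A, 4 hydrolase genes fell and 0 rose in edgeR (10.5%, beside 5.02% of all genes): Glb1, Ctsz, Fuca1 and Gm2a. DESeq2 called 10 lower and 1 higher there, with 9.9% of all genes called by it, and 18 of the 38 had an unadjusted p under 0.05. In kFRA against WT, 5 fell, including the asparaginyl endopeptidase gene Lgmn (−0.95, SE 0.17, adjusted p = 0.00581), Ctsh (−0.68, SE 0.13, adjusted p = 0.00656) and Ctsc, and Ctsk rose from a low level. These 6 are 15.8% of the list, beside 17.8% of all genes. With library size alone 4 rose and 0 fell, beside 23.1% of all genes. The count of hydrolase genes called in DH-LMP2A against WT was 14. It fell to 5 without DH-LMP2A replicate 1, to 8 without WT replicate 2 and to 9 without WT replicate 1. The share of all genes called was then 6.42%, 7.11% and 8.72%. The count was 7 with the macrophage covariate (7 higher and 0 lower), beside 6.73% of all genes, and 2 with the B cell covariate, beside 4.49%. The count in kFRA against DH-LMP2A was 12 without kFRA replicate 2, beside 22.7% of all genes. It was 1 or 2 without DH-LMP2A replicate 1, 2 or 3 or kFRA replicate 1, beside 2.41% to 3.59%. That in kFRA against WT was 12 without kFRA replicate 2, beside 38.8% of all genes. It was 2 or 3 without kFRA replicate 1 or WT replicate 1 or 2, beside 8.8% to 11.7%. With the B cell covariate the counts against DH-LMP2A and against WT were 1 and 0, beside 1.89% and 2.25% of all genes. With the macrophage covariate they were 7 and 3, beside 6.8% and 10.1%. Ctsz, Fuca1 and Glb1 passed in DH-LMP2A against WT whichever library was left out, as did Glb1 in kFRA against DH-LMP2A. Exons of Ppt2, Arsa and Arsb overlap other genes over 36.6%, 18.8% and 48.8% of their length, and their values are uncertain.

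**Figure D5:**
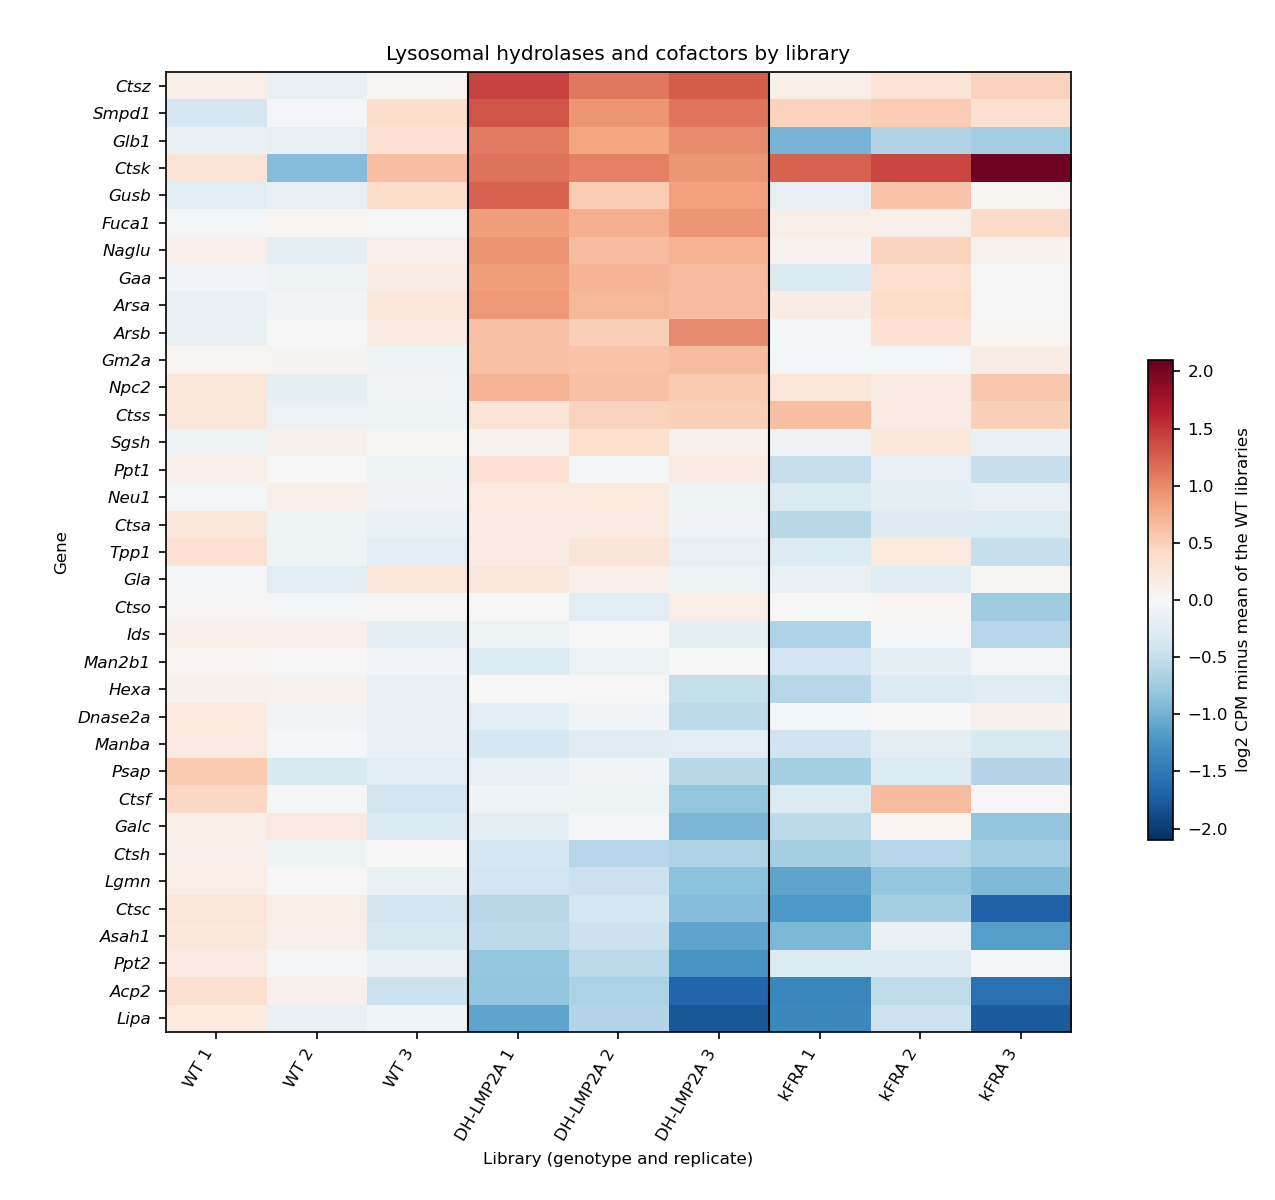
Level of 35 of the 38 lysosomal hydrolase and cofactor genes (rows, ordered by the DH-LMP2A against WT difference) in each library (columns), as log2 CPM minus the mean of the 3 WT libraries, with red for higher and blue for lower. Ctsz, Smpd1 and Glb1 are near the top and are high in all DH-LMP2A libraries, and Glb1 is low in all kFRA libraries.

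Of the 15 receptors for the turnover of ER and mitochondria, 2 were higher and 1 was lower in kFRA against WT (20% of the list, beside 17.8% of all genes tested). Without kFRA replicate 2, 5 were higher and 3 lower against WT, beside 38.8% of all genes, and 3 were higher and 2 lower against DH-LMP2A, beside 22.7%. In edgeR 0 passed in kFRA against DH-LMP2A and in DH-LMP2A against WT, with 4 and 3 at an unadjusted p under 0.05, and DESeq2 called 1 and 3. Fam134b, the current Retreg1, encodes a reticulon-like receptor that fragments ER sheets for autophagy. It measured 23.3, 30.4 and 21.8 CPM in WT, 13.3, 16.0 and 19.1 CPM in DH-LMP2A and 8.88, 11.9 and 7.83 CPM in kFRA, with no overlap between the genotypes (kFRA against WT, −1.40, SE 0.21, adjusted p = 0.00274). Ccpg1, an ER-phagy receptor known as a target of the unfolded protein response, measured 14.9, 16.4 and 19.1 CPM in WT, 27.3, 21.5 and 27.1 CPM in DH-LMP2A and 32.6, 19.4 and 55.1 CPM in kFRA (kFRA against WT, 1.09, SE 0.32, adjusted p = 0.0441). The exons of Ccpg1 overlap other genes over 55.8% of their length, so its values are uncertain. Tex264, another ER-phagy receptor gene, rose by 0.63 in kFRA against WT (SE 0.18, adjusted p = 0.0394). Fam134b passed whichever library was left out, while Ccpg1 and Tex264 passed in 1 of 6 such fits, that without kFRA replicate 2. With the B cell markers as a covariate 0 of the 15 passed in kFRA against WT, where 2.25% of all genes did, and the Fam134b difference was −0.71 (adjusted p = 0.593). Against DH-LMP2A the kFRA level of Fam134b differed by −0.75 (adjusted p = 0.0832), and by −0.88 without kFRA replicate 2 (adjusted p = 0.0187). The ER-shaping gene Atl3 gave −0.50 there (adjusted p = 0.156) and −0.69 without that library (adjusted p = 0.00712). The mitophagy receptor gene Bnip3l did not pass in kFRA against DH-LMP2A (−0.34, adjusted p = 0.127) or in DH-LMP2A against WT (0.34, adjusted p = 0.0851), nor did the ER-phagy receptor gene Sec62 in the latter (0.29, adjusted p = 0.115). Exons of Sec62 overlap another gene over 11.7% of their length, so its values are uncertain.

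The other core autophagy genes gave 3 lower of 21 tested in kFRA against WT and 1 lower in DH-LMP2A against WT, with 0 called in kFRA against DH-LMP2A in edgeR, 2 at an unadjusted p under 0.05 and 0 by DESeq2. These counts are 14.3% and 4.76% of the list, beside 17.8% and 12.4% of all genes. With library size alone 5 were higher and 0 lower in each comparison with WT, beside 23.1% of all genes in kFRA and 18.1% in DH-LMP2A. Without kFRA replicate 2, 3 were higher and 5 lower against WT, beside 38.8% of all genes. Against DH-LMP2A, 3 were then higher and 1 lower, beside 22.7%. The gene listed as 1700021K19Rik, which is Rubcn and encodes the inhibitor Rubicon, had a log2 fold change against WT of −0.84 in kFRA (adjusted p = 0.0143) and −0.74 in DH-LMP2A (adjusted p = 0.0297). These calls held in 4 and in 2 of the 6 fits without 1 library. Snap29, a SNARE of autophagosome fusion, fell by 0.44 (adjusted p = 0.0254) and the adaptor gene Plekhm1 fell by 0.57 (adjusted p = 0.0304) in kFRA against WT. Against DH-LMP2A, Snap29 gave −0.32 (adjusted p = 0.139), Tecpr1 gave 0.26 (adjusted p = 0.266) and the SNARE gene Vamp8 gave 0.36 (adjusted p = 0.195), of which Vamp8 passed without kFRA replicate 2 (0.58, adjusted p = 0.00907). Atg16l2 (0.48, adjusted p = 0.0905) and Plekhm1 (−0.39, adjusted p = 0.128) did not pass in DH-LMP2A against WT.

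Of the proton pump subunits, 1 of 16 tested passed in each kFRA comparison (6.25%, beside 5.02% of all genes against DH-LMP2A and 17.8% against WT). Leaving out kFRA replicate 2 gave 4 higher and 1 lower against DH-LMP2A (beside 22.7% of all genes), and 2 higher and 2 lower against WT (beside 38.8%). Atp6v0c, which encodes the proteolipid ring subunit of the vacuolar ATPase, measured 43.7, 39.5 and 41.1 CPM in WT, 38.7, 34.8 and 33.1 CPM in DH-LMP2A and 15.9, 14.6 and 14.3 CPM in kFRA. All kFRA libraries, replicate 2 included, lay below the other 6 (kFRA against DH-LMP2A, −1.25, SE 0.12, adjusted p = 0.000155, and kFRA against WT, −1.47, SE 0.12, adjusted p = 3.03e-05). Its exons overlap Gm43796 on the same strand over 27.4% of their length, so which transcript the reads came from is uncertain. In DH-LMP2A against WT 2 of 16 passed (12.5%, beside 12.4% of all genes). These were Atp6v1b2 and Atp6v1e1, lower by 0.61 and 0.63 on the log2 scale (adjusted p = 0.0205 and 0.0244). The Atp6v1b2 call held in 2 of the 6 fits without 1 library and the Atp6v1e1 call in 0. Atp6v1c1 did not pass there (−0.33, adjusted p = 0.109). In kFRA against DH-LMP2A, Atp6v0b (0.56, adjusted p = 0.0761) and Atp6v1e1 (0.36, adjusted p = 0.199 with all libraries) passed without kFRA replicate 2, as did Atp6v1a in kFRA against WT (−0.57, adjusted p = 0.0933 with all libraries). Exons of Atp6v0b overlap Gm12841 over 11.8% of their length, so its values are uncertain. Atp6v1b2 did not pass in kFRA against WT (−0.36, adjusted p = 0.0979).

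Of 21 other lysosomal membrane genes tested, 2 were higher and 1 lower in kFRA against WT, 1 was higher and 2 were lower in DH-LMP2A against WT (14.3% in each, beside 17.8% and 12.4% of all genes), and 0 passed in edgeR in kFRA against DH-LMP2A, with 3 at an unadjusted p under 0.05 and 1 called by DESeq2. When kFRA replicate 2 was left out, 2 were higher and 4 lower against WT, beside 38.8% of all genes. Against DH-LMP2A, 3 were then higher and 1 lower, beside 22.7%. Mcoln3, a relative of Mcoln1, measured 3.19, 2.24 and 1.34 CPM in WT, 8.37, 9.87 and 10.2 CPM in DH-LMP2A and 12.4, 8.32 and 8.90 CPM in kFRA. Both genotypes differed from the WT libraries they share (log2 fold change 2.12, SE 0.30, adjusted p = 0.00179 in kFRA and 2.06, SE 0.30, adjusted p = 0.00248 in DH-LMP2A). Laptm5, a lysosomal membrane gene of blood cells, was lower than in WT in kFRA (−0.71, adjusted p = 0.0286) and in DH-LMP2A (−0.95, adjusted p = 0.0102). The Laptm5 calls held in 2 and in 5 of the 6 fits without 1 library, and that in kFRA was lost without kFRA replicate 2 (−0.59, adjusted p = 0.0538). Npc1, which encodes the cholesterol exporter of the lysosome, measured 83.6, 66.1 and 72.3 CPM in WT, 32.9, 38.2 and 33.97 CPM in DH-LMP2A and 58.2, 79.8 and 42.3 CPM in kFRA. All DH-LMP2A libraries lay below the other 6 (DH-LMP2A against WT, −1.08, SE 0.21, adjusted p = 0.0108), and the call held whichever library was left out. It was lost with library size alone (−0.74, adjusted p = 0.125), with the macrophage covariate (−0.85, adjusted p = 0.11) and with the B cell covariate (−1.07, adjusted p = 0.114). Tmem192 was higher in kFRA than in WT (0.87, SE 0.26, adjusted p = 0.0466), a call that held in 1 of the 6 fits without 1 library. In kFRA against DH-LMP2A, Npc1 (0.78, adjusted p = 0.0736), Tmem192 (0.65, adjusted p = 0.181) and the cystine transporter gene Ctns (0.44, adjusted p = 0.141) did not pass with all libraries, and passed without kFRA replicate 2.

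Of the genes of nutrient sensing and of mTORC1, the kinase complex that restrains autophagy when amino acids are plentiful, 1 of 34 fell in kFRA against DH-LMP2A, the GATOR1 subunit gene Depdc5 (−0.64, SE 0.14, adjusted p = 0.0362), which is 2.94%, beside 5.02% of all genes. In kFRA against WT, 2 rose and 3 fell, among them the Rag GTPase gene Rragc (−0.43, adjusted p = 0.0227), Sesn3 (−1.16, adjusted p = 0.0334) and Nprl3 (0.50, adjusted p = 0.0382). These 5 are 14.7% of the list, beside 17.8% of all genes. Exons of Nprl3 overlap Mpg over 17.7% of their length, so its values are uncertain. With library size alone 4 rose and 0 fell, beside 23.1% of all genes. Without kFRA replicate 2 there were 6 higher and 8 lower of 35 tested against WT, beside 38.8% of all genes. There were then 6 higher and 5 lower against DH-LMP2A, beside 22.7%. With the B cell covariate the Sesn3 difference was −0.002 (adjusted p = 0.999). In DH-LMP2A against WT 0 passed in edgeR, with 5 at an unadjusted p under 0.05 and 3 called by DESeq2. Rragd (−0.58, adjusted p = 0.094), Fnip2 (−1.43, adjusted p = 0.0964) and Rragc (−0.30, adjusted p = 0.102) did not pass there, nor did Rraga (−0.47, adjusted p = 0.122) and Sesn3 (−0.92, adjusted p = 0.137) in kFRA against DH-LMP2A. Of the 30 calls made on the genes named by rule from these further lists, 12 held whichever library was left out. These were Fam134b, Lgmn and Ctsh in kFRA against WT, Glb1 in kFRA against DH-LMP2A, Ctsz, Fuca1, Glb1 and Npc1 in DH-LMP2A against WT, and both calls of Mcoln3 and of Atp6v0c. The other 18 were lost without at least 1 library: both calls of 1700021K19Rik and of Laptm5, those of Ctsz and Fuca1 in kFRA against DH-LMP2A and of Glb1 in kFRA against WT, and those of Snap29, Plekhm1, Tex264, Ccpg1, Tmem192, Atp6v1b2, Atp6v1e1, Depdc5, Rragc, Sesn3 and Nprl3. Atp6v1e1 held in 0 of its 6 fits. Tex264, Ccpg1, Tmem192, Depdc5, Rragc, Sesn3 and Nprl3 each held in 1 of 6.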

How the data were processed

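The authors deposited 1 table of raw read counts per gene for the 9 libraries, with merged exon coordinates, per the file headers. Libraries were stranded, poly(A)-selected and read in pairs, per the labels' protocols. The submitters' processing notes name STAR 2.4.0a, featureCounts of Subread 1.5.0-p3, DESeq2 and the build mm10 (GRCm38). The counter's strand setting and its treatment of reads with several matches are not given in the sources used here, so genes that overlap exons of other genes are uncertain: 10 of the 37 members overlap, 5 of them over more than 10% of exon length (Becn1, Atg9a, Gabarapl1, Sqstm1 and Ctsb).

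Counts were tested with edgeR 4.0.16 (R 4.3.3): filterByExpr by genotype, TMM scaling, 1 quasi-likelihood model of the 9 libraries, 3 contrasts, 2-sided, with Benjamini-Hochberg adjustment over the 14199 genes tested and a threshold of 0.05. The SE is the log2 fold change over the square root of F, and CPM are scaled by TMM. The smallest level read as detected, 3 counts, was 0.127 to 0.205 CPM. Each library is 1 spleen, and replicates of a genotype differed beyond sampling noise in every pair (chi-square per degree of freedom 17.3 to 164). Promoter windows came from RefSeq. Alternatives were DESeq2 size factors, library size alone, 2 other filters on low counts, a replicate block, the DESeq2 1.42.0 Wald test, leaving out the immunoglobulin genes, a fit of the 6 libraries alone, marker covariates, an adjusted p under 0.01 and leaving out each library. The model was also run on simulated counts, but the outcome is not given here and nothing in the text rests on it. All members are named, and of each other list the 3 genes per comparison with the smallest p and a mean of at least 5 CPM. Further hydrolase genes past the threshold were named after their values were seen, and 3 of the 38 are counted but not reported singly here. The members and lists were chosen with earlier results of these data known.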

Additional observations from a re-analysis of the deposited data

How the results depend on the processing

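The count of members past the threshold in kFRA against DH-LMP2A (1) was 0 with library size alone, with only the 6 libraries, with the B cell covariate and at an adjusted p under 0.01. It was 2 with the macrophage covariate, which added Wipi1, beside 6.8% of all genes. It ranged from 0 to 8 when each library was left out. The count in kFRA against WT (0) was 7 with library size alone, beside 23.1% of all genes, and 6 with the DESeq2 Wald test, beside 24.8%. It ranged from 0 to 12 when each library was left out. Both 8 and 12 are the values without kFRA replicate 2, where 22.7% and 38.8% of all genes passed. The count in DH-LMP2A against WT (1) was 6 with library size alone, beside 18.1% of all genes, and 3 with the DESeq2 Wald test, beside 17.8%. It was 0 with only the 6 libraries, with either covariate and at an adjusted p under 0.01, and ranged from 0 to 1 when each library was left out. Without DH-LMP2A replicate 3 the member called was Ctsl and not Calcoco1.

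Library size alone moved the median log2 fold change of all genes to −0.14, 0.17 and 0.33 in the 3 comparisons in the order above, and the share of calls that were higher from 34.4%, 37.6% and 41% to 26%, 72.1% and 79.8%, so that the 7 and 6 members called under it were all higher. Under it the member medians were −0.11, 0.23 and 0.28. Of 1773 values of single members under the alternatives, 1715 kept their side of the threshold and direction, 16 lost a call and 42 gained one, and 0 calls changed direction. Most of the 1715 were members not called either way. The 2 calls were less stable: Lamp2 in kFRA against DH-LMP2A and Calcoco1 in DH-LMP2A against WT each held in 8 of 16 alternative fits. Neither passed the further alternative of an adjusted p under 0.01 in edgeR with all libraries and TMM scaling. Fold changes that passed neither way changed sign in 127 values.

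The replicate block gave 2 members in DH-LMP2A against WT (Tax1bp1 added) and the same counts as without it in the other comparisons. Replicate numbers name different mice, and the deviations of same-numbered libraries correlated between −0.21 and 0.20, so the numbers were not taken to pair the samples. With 3 libraries per genotype, 95% intervals of the members' log2 fold changes exclude changes beyond 2-fold for most members and do not exclude smaller ones. Intervals and floors cover no error of the cell isolation.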
